A study of Drosophila melanogaster with 2 samples.

Results

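Insertions of gypsy5, Stalker2, gtwin, mdg1 and 297, LTR retrotransposon families regarded as active in the somatic follicle cells of the ovary, were followed in RNA from whole ovaries of *Drosophila melanogaster*. All entries of the deposited lists whose name begins with one of these 5 family names were taken, which gave 17 insertions of 184 listed insertions and of 296 listed features in all. Ovaries came from flies homozygous for z3-5967, a mutation of CG5508 (minotaur, mino), and from flies heterozygous for it. Both groups were 3 to 5 days old, were kept at 25 °C and carried the mutation, so neither was wild type. There was 1 library per genotype. No difference below therefore has a replicate check, and each compares these libraries, not the genotypes. The lists hold only features that passed the authors' test, so an insertion that is absent from them cannot be called unchanged. The families were chosen with their rise in these lists known.

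LTR retrotransposons are copied through RNA, which is transcribed from the long terminal repeat at one end of the element and carries the gag and pol genes. Gypsy5, gtwin and 297 belong to the branch that also carries a gene related to viral env. In follicle cells, the somatic layer around the germline cysts, such elements are silenced by the protein Piwi loaded with small piRNAs, many of them made from the flamenco locus. The study's title places minotaur in the making of these primary piRNAs. Copies of a family are nearly identical, so a read often matches several of them, and the authors counted reads that map once and, apart from that, reads with up to 10 mappings. In whole ovaries more RNA per follicle cell and more follicle cells cannot be told apart, nor can RNA of follicle cells and RNA of the germline.

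With up to 10 mappings per read, all 17 insertions were higher in homozygous ovaries and none was in the list of lower features. Stalker2 contributed 8 insertions, 297 contributed 4, gypsy5 and gtwin 2 each and mdg1 a single one. They amount to 9.55% of the 178 insertions that the dm6 annotation names for these families, against 3.17% for insertions of all families. That comparison takes no account of span, and at like span the shares were close, as given below. Over the 17 insertions the median fold was 36.6, against 15.4 over all 184 listed insertions. Of the 17, 8 are Stalker2 copies, whose values are not independent, and family medians ran from 7.94 for 297 to 50.2 for gypsy5. The median of 36.6 therefore does not describe each family. As the families were chosen with their rise known, this difference is no test of them. With uniquely mapped reads only 3 were listed, gypsy5{}1006, gypsy5{}103 and Stalker2{}106, or 1.69% of the 178, against 0.349% for all families. Span is not taken into account there either. Whether every insertion annotated in dm6 was among those the authors counted is not known. Of all entries that the authors' adjusted p-values imply were tested, 1.54% were listed as higher and 0.114% as lower with up to 10 mappings, and 0.514% as higher and 0.137% as lower with uniquely mapped reads. Levels below are normalized reads, meaning reads scaled by the authors for depth. For up to 10 mappings they follow from the mean and the fold in the authors' deposited table. Each fold is followed by its exact 95% interval, which covers only the counting error of the reads.

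**Figure D1:**
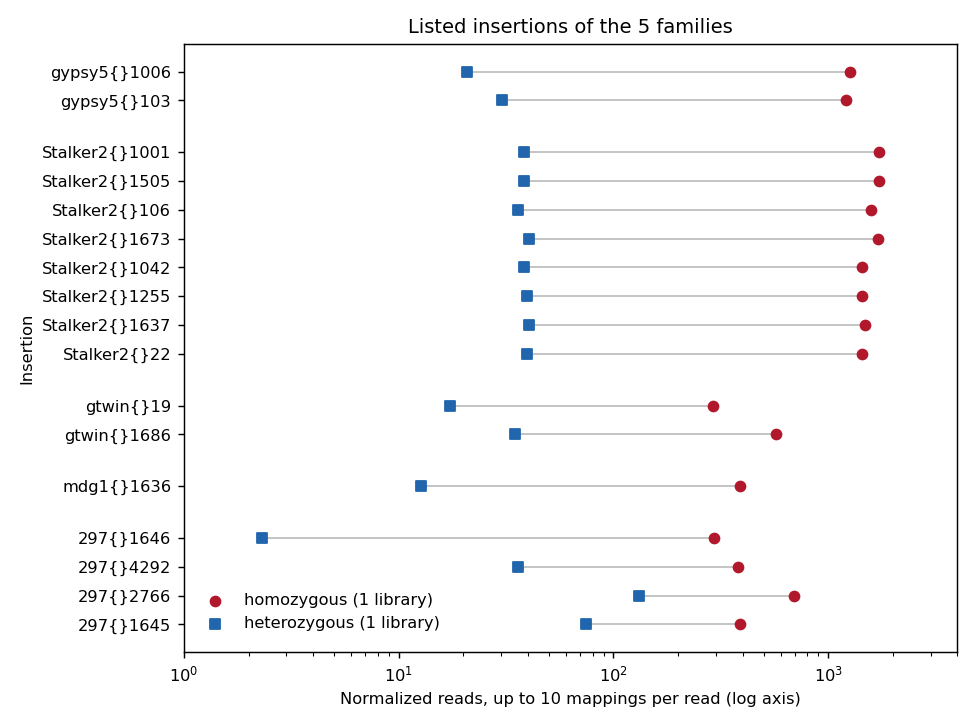
Normalized reads with up to 10 mappings per read (x axis, log scale) of the 17 listed insertions (y axis), in the homozygous library (circles) and the heterozygous library (squares), 1 library each. The 8 Stalker2 insertions lie at nearly the same place in both libraries, while the 4 insertions of 297 are spread over 2.32 to 130.9 normalized reads in the heterozygous library.

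With up to 10 mappings, Stalker2 had the most listed insertions and the highest read totals per insertion. Stalker2{}1001, on 3L from 14825181 to 14832850 in dm6, had 1719 normalized reads in homozygous and 38.2 in heterozygous ovaries, a 45.0-fold rise (31.9 to 65.5). Stalker2{}1505, on chromosome 4 from 320044 to 328162, had 1717 normalized reads in homozygous ovaries against 38.2 in heterozygous ones. These copies on different chromosomes therefore gave almost the same values. Stalker2{}1673, on 2R from 5378999 to 5394281, followed with 1707 normalized reads in homozygous and 40.6 in heterozygous ovaries. Stalker2{}106, on X from 11312119 to 11319407, had 1576 normalized reads in homozygous ovaries against 35.9 in heterozygous ones.

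The other 4 copies of Stalker2 formed a slightly lower set. Stalker2{}1637 on X had 1480 normalized reads in homozygous and 40.6 in heterozygous ovaries. Stalker2{}1255 on 3R had 1440 normalized reads in the homozygous library against 39.4 in the heterozygous one. Stalker2{}1042 on 3L and Stalker2{}22 on X had 1435 normalized reads each in homozygous ovaries, against 38.2 and 39.4 in heterozygous ovaries. Over the 8 copies the fold ran from 36.4 to 45.0, with a median of 39.8. Homozygous reads differed at most 1.20 times between copies and heterozygous reads at most 1.13 times. Every copy's fold lay within the counting interval of every other copy, so the order of the copies is not resolved by these reads. Copies share reads, so the 8 values are not independent measurements of the family.

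Gypsy5 had the largest median fold of the 5 families, 50.2. The insertion gypsy5{}1006, on 3L from 15295823 to 15298608 in dm6, had 1258 normalized reads in homozygous and 20.9 in heterozygous ovaries, a 60.3-fold rise (38.0 to 102). The insertion gypsy5{}103, on X from 11194484 to 11201847, had 1205 normalized reads in homozygous ovaries against 30.1 in heterozygous ones, a 40.0-fold rise (27.2 to 61.4). The intervals of these folds overlap. Of the pair only gypsy5{}103 spans at least 5000 bases. It covers 7364 bases and gypsy5{}1006 covers 2786, so homozygous reads per kilobase of span were 190 for gypsy5{}103 and 523 for gypsy5{}1006.

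Gtwin had smaller folds than gypsy5 and Stalker2. The insertion gtwin{}19, on X from 1628029 to 1635439, had 291 normalized reads in homozygous and 17.4 in heterozygous ovaries, a 16.7-fold rise (9.999 to 30.2). The insertion gtwin{}1686, on 2L from 20176783 to 20191109, had 570.4 normalized reads in homozygous ovaries against 34.8 in heterozygous ones, a 16.4-fold rise (11.4 to 24.5). The copies had nearly the same fold at different levels. The higher one spans 14327 bases against 7411, and per kilobase of span they had 46.1 and 45.5 reads in homozygous and 2.09 and 2.02 in heterozygous ovaries. The upper end of the interval of gtwin{}1686, 24.5, lay below the lower ends of all 8 Stalker2 copies, and that of gtwin{}19, 30.2, lay above 5 of these lower ends.

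For mdg1 a single insertion of 43 was listed. The insertion mdg1{}1636, on X from 21523177 to 21556097, had 390.1 normalized reads in homozygous and 12.7 in heterozygous ovaries, a 30.6-fold rise (16.9 to 61.7). The span of 32921 bases is the longest of all 17 and holds insertions of other families. Those that were listed are described below with their reads.

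The listed insertions of 297 differed most among themselves. The insertion 297{}1646, on X from 21535843 to 21552942, had 295 normalized reads in homozygous and 2.32 in heterozygous ovaries, a 127-fold rise (35.0 to 1056). Its heterozygous value is 2 reads. The insertion 297{}4292, on X from 22969657 to 22979266, had 380.6 normalized reads in homozygous ovaries against 35.9 in heterozygous ones, a 10.6-fold rise (7.36 to 15.8). The insertion 297{}2766, on 2R from 4641708 to 4650039, had 691 normalized reads in homozygous and 130.9 in heterozygous ovaries, a 5.28-fold rise (4.33 to 6.49). The insertion 297{}1645, on 3R from 8898276 to 8906382, had 389 normalized reads in homozygous ovaries against 74.2 in heterozygous ones, a 5.25-fold rise (4.03 to 6.93). Homozygous reads of these 4 insertions differed 2.34 times at most, while their heterozygous reads differed 56.5 times. The median fold of 7.94 therefore covers unlike values, and the interval of 297{}1646 lies above those of the other 3.

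Listed insertions were mostly long. Of the 17, 16 spanned at least 5000 bases in dm6, out of 78 annotated insertions of that span in these families, or 20.5%. Of the 100 shorter ones only gypsy5{}1006 was listed. Over all families the shares were 22.8% of 619 long and 0.802% of 5115 short insertions. At like span the shares of these families were thus close to those of all families, unlike the shares without regard to span given above. The families differed in how many long copies they have. Of long copies, 8 of 10 were listed for Stalker2, 2 of 3 for gtwin and the single one for gypsy5, but 1 of 22 for mdg1 and 4 of 42 for 297. These shares are of insertions annotated in dm6, while the submitters' notes name build dm3. Some of the annotated insertions may not have been among those the authors counted. Among all families with more than 10 long insertions, 7 of 13 were listed, and 4 of these by an insertion that holds no listed insertion of another family. Of those with 2 to 10 long insertions, 30 of 47 were listed, 26 of them in that way. A read of more than 10 identical copies has more mappings than the lists allow, and the part of this limit in the result was not tested.

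**Figure D2:**
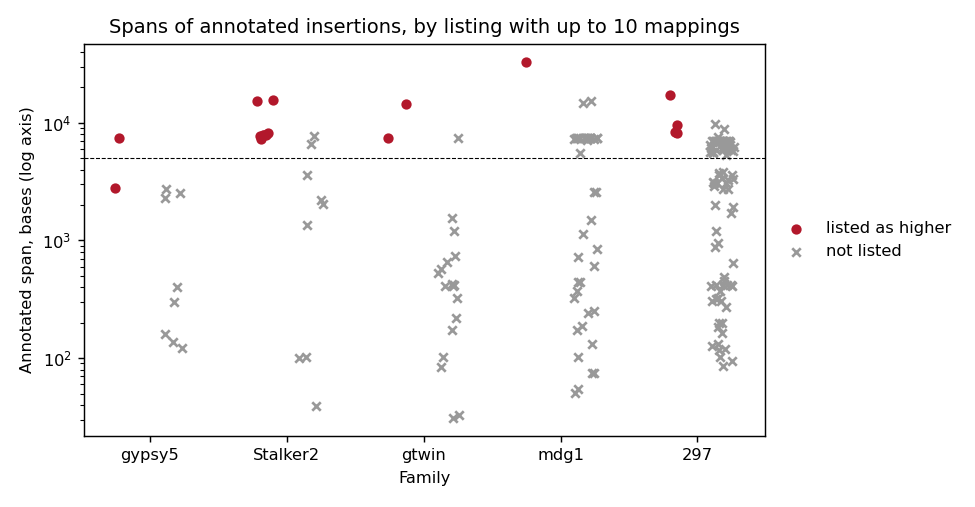
Annotated span in bases (y axis, log scale) of the 178 insertions of the 5 families in dm6 (x axis), with listed insertions as circles and those not listed as crosses, and a dashed line at 5000 bases. All listed insertions but gypsy5{}1006 lie above the line, and many long insertions of mdg1 and 297 above it were not listed.

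Each listed insertion of 297 and the mdg1 insertion held a listed insertion of another family within its span and on its own strand. This was so for 5 of the 17 insertions, or 29.4%, against 10.4% of all 182 listed insertions with a dm6 position. None of the 12 insertions of gypsy5, Stalker2 and gtwin did. For these comparisons reads before scaling are given. The insertion 297{}1645 had 451 homozygous and 64 heterozygous reads, and the 1731 insertion inside it had exactly the same numbers. The insertion 297{}2766 had 801 homozygous and 113 heterozygous reads, against 799 and 112 for Idefix{}3762 inside it. The insertion 297{}1646 had 342 homozygous and 2 heterozygous reads, against 338 and 2 for blood{}218 inside it. In these 3 cases at least 98.8% of the homozygous reads and 99.1% of the heterozygous reads equal the number counted for the inner element.

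The insertion 297{}4292 differed from those 3. It had 441 homozygous and 31 heterozygous reads, and 3S18{}4419 inside it had 363 and 12. The inner 3S18 insertion makes up 82.3% of the outer number in homozygous and 38.7% in heterozygous ovaries. Parts of Cr1a and jockey2 also lie within this span, neither of them listed. If reads of an inner element were counted for both, 78 homozygous and 19 heterozygous reads of 297{}4292 lie outside 3S18{}4419.

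**Figure D3:**
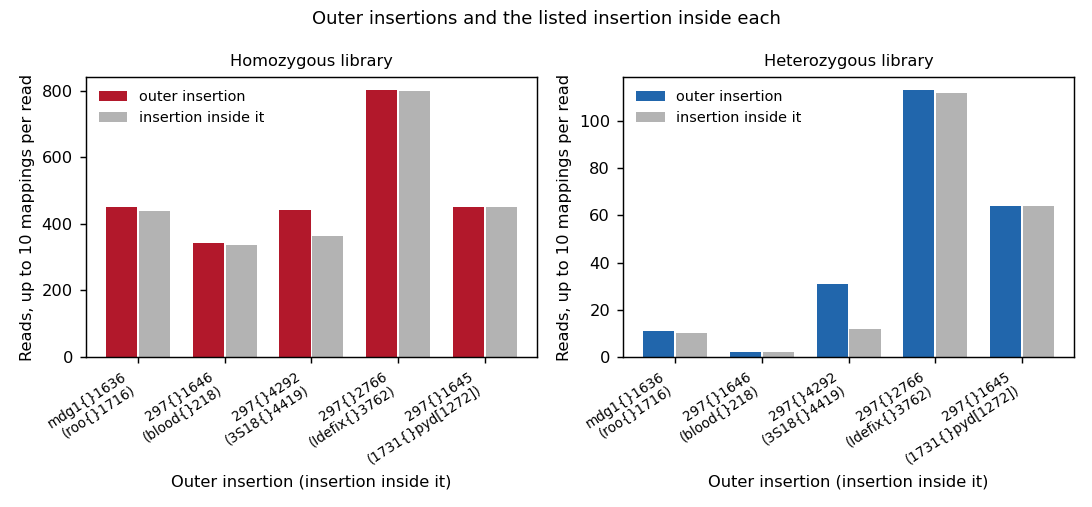
Reads with up to 10 mappings (y axis) of mdg1 and 297 insertions (coloured bars) and of a listed insertion inside each (grey bars), in the homozygous library on the left and the heterozygous library on the right. The bars of a pair are nearly level except for 297{}4292, with 441 against 363 homozygous and 31 against 12 heterozygous reads.

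The insertion mdg1{}1636 encloses a nest of elements on its own strand. It had 452 homozygous and 11 heterozygous reads. Within it, roo{}1716 had 440 homozygous and 10 heterozygous reads, a 32.8-fold rise. Within roo{}1716 lies 297{}1646 and within that blood{}218, which had 338 homozygous and 2 heterozygous reads, a 125.9-fold rise (34.6 to 1043). The innermost element thus equals 74.8% of the homozygous reads of mdg1{}1636 and 18.2% of its heterozygous reads. Outside roo{}1716 the span of mdg1{}1636 has 12 homozygous and 1 heterozygous reads, if nested reads were counted for both. A rise of mdg1 and of 297 sequence itself is for these reasons uncertain. Where in a span the reads lie was not analysed here.

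**Figure D4:**
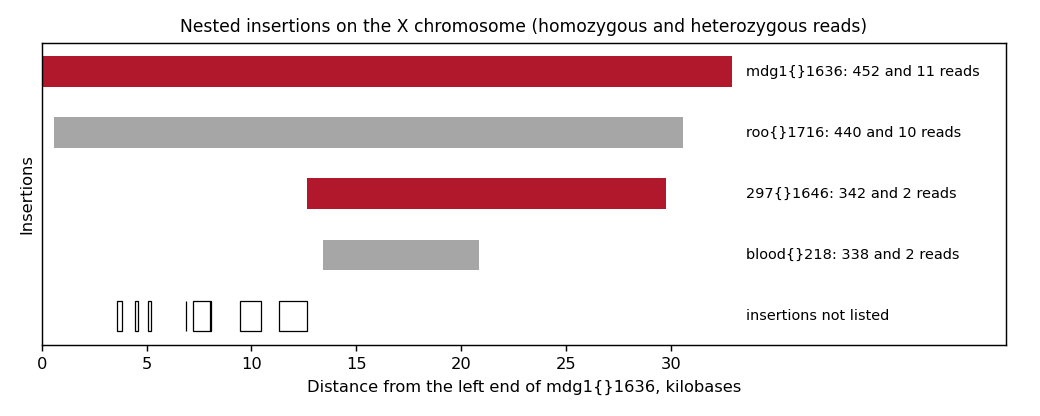
Spans of mdg1{}1636 and of the insertions inside it along the X chromosome, as distance in kilobases from its left end (x axis), with homozygous and then heterozygous reads of each listed insertion at the right. Red marks mdg1 and 297, grey marks listed insertions of other families and open boxes mark insertions that were not listed, and the innermost span has 338 homozygous reads where the outermost has 452.

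The Stalker2 and gtwin copies were set against their surroundings in the same way. Stalker2{}1673 holds opus{}659 and Stalker2{}660, both on the opposite strand and neither listed. It lies within gypsy12{}2932, which is on the opposite strand and was not listed. On its own strand it lies within F{}656, a copy of a retrotransposon without LTRs. F{}656 had 2045 homozygous and 68 heterozygous reads, against 1978 and 35 for Stalker2{}1673. Most reads of F{}656 in the homozygous library thus match the number of the Stalker2 copy it contains. Similarly, gtwin{}1686 had 661 homozygous and 30 heterozygous reads and lies within invader3{}1641, which had 680 and 33. Stalker2{}1637 holds an insertion of another LTR family, which was not listed. Of the 17 insertions, 11 lay within no annotated gene of dm6 and 5 within a protein-coding gene.

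Some of the surrounding genes were themselves listed. Stalker2{}1001 lies in an intron of CG17839 on the same strand, and the 2 listed transcripts of this gene had 2017 to 2038 homozygous and 43 to 49 heterozygous reads. The insertion had 1992 homozygous and 33 heterozygous reads, so a rise of CG17839 outside the insertion is uncertain. Stalker2{}1505 overlaps an exon of Rnf11, listed under the older name CG32850, on the same strand. Rnf11 had 380 homozygous and 71 heterozygous reads, a 3.99-fold rise (3.09 to 5.21), against 1990 and 33 for the insertion. Most homozygous reads of the insertion were therefore not counted for Rnf11. The overlap is that of the dm6 annotation, which may differ from the one the authors counted on. The insertion gtwin{}19 lies in an intron of Mur2B, a mucin-related gene, on the same strand. Mur2B was listed as lower with uniquely mapped reads, at 4422 normalized reads in homozygous and 9350.1 in heterozygous ovaries, while gtwin{}19 within it was higher with up to 10 mappings. Stalker2{}22 in Hr4, gtwin{}19 also in br and 297{}1645 in pyd lie in introns of genes on the opposite strand, none of them listed.

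Stalker2{}1637, on X from 21640019 to 21655539, lies within the annotated lncRNA:flam transcript unit, from 21631891 to 21790731, on the opposite strand. The minus strand of the flam cluster was listed as higher, with 18616 normalized reads in homozygous and 1999 in heterozygous ovaries with up to 10 mappings, a 9.31-fold rise (8.87 to 9.79). With uniquely mapped reads it had 1763 normalized reads in homozygous and 130.7 in heterozygous ovaries, a 13.5-fold rise (11.2 to 16.5). By its name this is the strand of Stalker2{}1637, opposite to that of lncRNA:flam. Stalker2{}1637 rose 36.5-fold (26.1 to 52.6), close to copies of the family that lie elsewhere. No list holds the plus strand of flam.

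Uniquely mapped reads match a single copy of the reference genome. Whether these flies carry that copy, or others that the reference lacks, was not analysed here. The insertion gypsy5{}1006 had 136.6 normalized reads in homozygous and 1.16 in heterozygous ovaries, a 118-fold rise (20.9 to 4695). The insertion gypsy5{}103 had 102.9 normalized reads in homozygous ovaries against 10.4 in heterozygous ones, a 9.89-fold rise (5.04 to 22.2). Stalker2{}106 had 65.7 normalized reads in homozygous and 1.16 in heterozygous ovaries, a 56.8-fold rise (9.90 to 2274). The heterozygous values are 1 read for gypsy5{}1006, 9 reads for gypsy5{}103 and 1 read for Stalker2{}106, so the intervals are wide and overlap.

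These reads are a small part of those counted with up to 10 mappings. In homozygous ovaries 158 of 1458 reads of gypsy5{}1006 were unique, or 10.8% (exact 95% interval 9.29 to 12.5). For gypsy5{}103 they were 119 of 1396, or 8.52% (7.11 to 10.1), and for Stalker2{}106 they were 76 of 1826, or 4.16% (3.29 to 5.18). In the heterozygous library 9 of 26 reads of gypsy5{}103 were unique, or 34.6% (17.2 to 55.7), a larger share than in the homozygous library. For gypsy5{}1006 1 of 18 heterozygous reads was unique, or 5.56% (0.141 to 27.3), and for Stalker2{}106 1 of 31, or 3.23% (0.0816 to 16.7). Both shares were below those in the homozygous library, which lay within their intervals. The median share over the 20 insertions listed in both treatments was 28.5% in homozygous ovaries, and Stalker2{}106 had the lowest share of the 20.

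The repeated reads of the gypsy5 copies were alike. Subtracting unique reads left 1300 homozygous and 17 heterozygous reads for gypsy5{}1006. For gypsy5{}103 it left 1277 homozygous and 17 heterozygous reads. The remaining reads were 56.9-fold higher in homozygous ovaries for gypsy5{}1006 and 55.9-fold for gypsy5{}103, closer to each other than the folds before subtraction. Whether the same reads were counted for both copies was not analysed here. For Stalker2{}106 subtraction left 1750 homozygous and 30 heterozygous reads, or 43.4-fold.

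**Figure D5:**
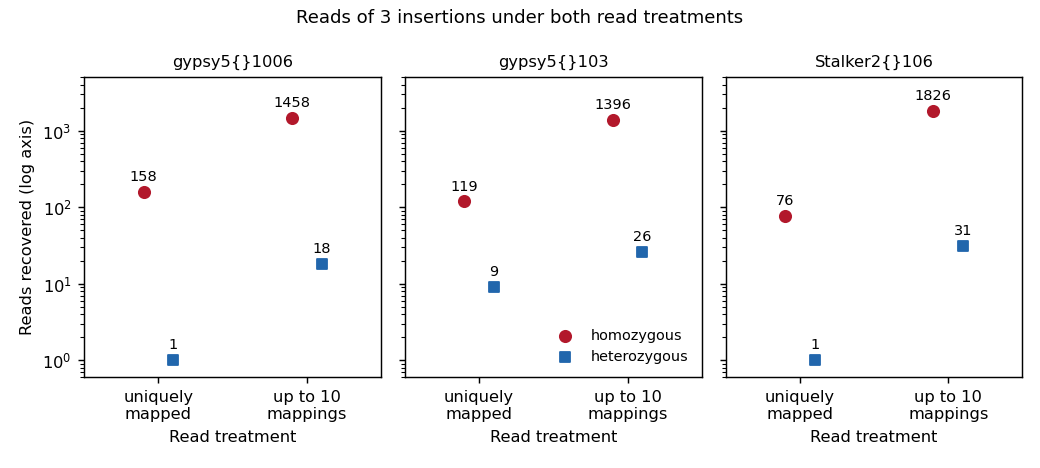
Reads of the 3 insertions listed under both read treatments (x axis) on a log scale (y axis), for the homozygous library (circles) and the heterozygous library (squares), with the number of reads above each point. Homozygous reads exceed heterozygous ones in every panel, and gypsy5{}103 stands out by 9 unique heterozygous reads.

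Other LTR families of follicle cells had smaller median folds than gypsy5 and Stalker2. Of 23 further families of this kind, 12 were listed as higher with up to 10 mappings, by 48 insertions, and 1 with uniquely mapped reads, gypsy12. Their median folds ran from 4.27 for accord to 17.0 for gypsy12, with gypsy10 next at 15.0. Accord, gypsy10 and gypsy3 were each listed by a single insertion. Gypsy10 and gypsy3 were not among the families listed by an insertion that holds no listed insertion of another family. Gypsy5 at 50.2 and Stalker2 at 39.8 lay above all 12, as did the single mdg1 insertion at 30.6. Gtwin at 16.6 lay below gypsy12 only, and 297 at 7.94 lay among the 12. The mdg1 and 297 values come from insertions that hold listed insertions of other families, and may not be those of mdg1 or 297 sequence. Stalker and Stalker4, named alike, had medians of 10.6 and 9.96. Gypsy and ZAM, known targets of flamenco, were not among those listed, and dm6 has 4 long insertions of gypsy and 0 of ZAM. By median fold with up to 10 mappings, the families closest to Stalker2 were HeT-A at 44.2-fold with 16 insertions and gypsy5, and those closest to gypsy5 were HeT-A and Stalker2. Closest to gtwin were the I element at 16.3-fold and gypsy12. Closest to mdg1 were 3S18 at 30.7-fold and Burdock at 26.4-fold, and closest to 297 were springer at 8.17-fold and rover at 7.46-fold. This likeness is a single ratio between 2 libraries.

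Few genes were listed at all. Of 13986 protein-coding genes annotated in dm6, 0.408% were listed as higher and 0.15% as lower with up to 10 mappings, and 0.179% and 0.15% with uniquely mapped reads. Of 25 genes of the piRNA pathway 0 were listed in either direction, and mino was not listed. They include piwi, which encodes the silencing protein, and armi and zuc, which act in piRNA production. The 25 also hold flam, and aub and vas, which are among the germline markers too. The minus strand of the flam cluster, listed as higher, is a separate entry. Of 10 follicle cell markers and 10 germline markers 0 were listed. With shares this low over all genes, nothing is read from these counts of 0. Of 5 fat body markers 4 were higher with up to 10 mappings, at 734 normalized reads summed in homozygous and 49.8 in heterozygous ovaries. Of 8 muscle markers 4 were higher, at 5300.2 against 1973 summed normalized reads. Of 9 eggshell genes, which late follicle cells express, 5 were lower, at 4591 in homozygous and 14572 in heterozygous ovaries, so these 5 genes moved opposite to the 17 insertions. The eggshell count stands against 0.15% of protein-coding genes listed as lower, and the fat body and muscle counts against 0.408% listed as higher. The marker lists were chosen with earlier results of these data known, so these counts are no test of any tissue. The part of tissue composition in the rise of the 17 insertions was not tested.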

How the data were processed

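Total RNA of ovaries was sequenced in 2 libraries prepared by not-so-random priming, per the labels' protocols. TopHat 1.4.1, Bowtie 0.12.8, bedtools, DESeq 1.8.2 and build dm3 are named in the submitters' processing notes, with no roles. Signal values were deposited by the authors as normalized read counts, per library and as a mean, with a fold ratio of heterozygous over homozygous values (inverted here), its log2 (not used) and p-values, per the file headers. No p-value was computed here, as each genotype has 1 library.

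Where up to 10 mappings were counted, 4 per-library columns carry names of no sample in this series. They were not used, and levels were derived from the deposited mean and fold. Of 26 lower entries shared by both treatments, 16 had identical reads in both libraries, and of 108 shared higher entries 18 had. All 26 and all 108 had at least as many reads of each library with up to 10 mappings. No label says that the treatments compare the same libraries, and this was taken from those entries. All 143 entries with uniquely mapped reads and all 393 with up to 10 mappings were whole multiples of 1 step per library, within 0.001 read. By the steps, the homozygous library was 1.34 times as deep as the other. Total depth was not known. An entry without a gene identifier was left out.

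Ratios were given exact conditional Clopper-Pearson intervals (scipy 1.17.1), a calculation tested on simulated data. Positions came from Ensembl release 115 (dm6) by FlyBase identifier, which matched all 17 insertions. No source used here says whether counting used strand. The members and lists were chosen with earlier results of these data known. All listed insertions were named for families with up to 6. Of the 8 of Stalker2, those not reached by the rule on highest level and on highest and lowest fold were named after their values were seen.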

Additional observations from a re-analysis of the deposited data

How the results depend on the processing

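No paired analysis was possible because there was a single library of each genotype, and no library could be left out. Leaving out insertions that hold a listed insertion of another family was chosen after seeing the data. It left 12 insertions in place of 17, their median fold was 38.8, and no insertion of mdg1 or 297 remained to give a fold. Requiring the adjusted p of the authors' deposited table to lie under 0.01 left 1 of 3 insertions with uniquely mapped reads, gypsy5{}1006, and 1 listed under both treatments, since the threshold is stricter, while all 17 with up to 10 mappings passed it. Changing the read treatment turned the 3 into 17 and the 17 into 3. With a pseudocount of 10, gypsy5{}1006 stood at 13.1-fold and Stalker2{}106 at 6.79-fold with uniquely mapped reads, below their intervals. The fold of gypsy5{}103 was 40.0 with up to 10 mappings in place of 9.89, above its interval, and the cause was not tested. The other 47 recomputed values stayed within their counting interval or within 1.5 times for counts, and no direction turned. The family folds had no value with uniquely mapped reads for gtwin, mdg1 and 297. Unique folds of gypsy5{}1006 and Stalker2{}106 rest on 1 heterozygous read each, and their precision is limited by that number.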
